A study of Mus musculus with 5 samples.

Results

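The beta-defensins of mouse skin described here are 5 genes, Defb1, Defb3, Defb4, Defb6 and Defb14, taken by symbol from the 31053 genes counted in each library. Their levels were read in single cells of 5 droplet libraries, 1 per group, all from the C57BL/6 strain. Of these libraries, 3 came from wild-type mice aged 10 weeks: the dermis and the epidermis of mice without treatment, and the dermis of mice whose ears received imiquimod, a TLR7 agonist that induces psoriasis-like inflammation, for 5 days. Untreated mice with the genotype label K5. Pp6fl/fl gave non-lesional epidermis at 10 weeks and lesional whole skin at 18 weeks. K5 is the usual short name of the keratin 5 promoter, active in basal keratinocytes, and Pp6fl/fl a floxed allele of protein phosphatase 6. The labels name no Cre line and do not say how many animals gave a library or which body site the K5. Pp6fl/fl skin came from.

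Beta-defensins are short, cationic, secreted peptides of epithelia that disrupt microbial membranes and also attract leukocytes through chemokine receptors such as Ccr6. They are made as precursors with a signal peptide, and the mature peptide is held by cysteines that pair in disulfide bridges. Defb1 is a widely expressed epithelial form, while Defb3, Defb4 and Defb14 are known as forms that keratinocytes raise in response to microbes and cytokines such as IL-17 and IL-22.

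The 5 genes lie on chromosome 8 and have 2 exons each in the GENCODE M21 annotation (GRCm38, the sequence of mm10). Defb14 (ENSMUSG00000046354, chr8:19194357-19195212), Defb4 (ENSMUSG00000059230, chr8:19198706-19201545), Defb6 (ENSMUSG00000050756, chr8:19225478-19228209) and Defb3 (ENSMUSG00000039775, chr8:19293360-19295291) follow each other on the plus strand within 100935 bases, and Defb1 (ENSMUSG00000044748, chr8:21776599-21795185) starts 2481307 bases further on. The coding sequences of Defb6, Defb3 and Defb1 are shown because the first and the last carried nearly all UMIs of the members, while Defb3 is a close neighbour with hardly any. Capitals mark the in-frame codons for cysteine (TGT or TGC).
Defb6: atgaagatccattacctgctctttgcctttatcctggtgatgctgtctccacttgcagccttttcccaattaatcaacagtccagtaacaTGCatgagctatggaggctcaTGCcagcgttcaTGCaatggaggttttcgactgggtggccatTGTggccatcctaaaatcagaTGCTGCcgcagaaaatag
Defb3: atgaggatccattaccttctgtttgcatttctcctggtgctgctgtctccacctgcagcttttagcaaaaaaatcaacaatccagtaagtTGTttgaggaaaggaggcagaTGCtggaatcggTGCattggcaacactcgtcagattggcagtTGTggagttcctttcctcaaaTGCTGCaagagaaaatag
Defb1: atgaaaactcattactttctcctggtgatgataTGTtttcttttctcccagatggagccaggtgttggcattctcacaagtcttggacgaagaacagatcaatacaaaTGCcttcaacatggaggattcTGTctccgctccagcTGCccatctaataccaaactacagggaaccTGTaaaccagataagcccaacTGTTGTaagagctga
Defb6, Defb3, Defb4 and Defb14 have 6 cysteine codons each and Defb1 has 7. In global alignment, the Defb6 coding sequence was identical to Defb4 at 78.6% of columns, to Defb3 at 71.9%, to Defb14 at 54.1% and to Defb1 at 50.2%. Reads could nevertheless be told apart: none of the 274 windows of 50 bases in the Defb6 transcript occurs in a transcript of another gene, nor any of Defb3, Defb1 or Defb14, and 23 of 405 windows of Defb4 also occur in Defb8. The Defb14 model holds the coding sequence alone, with a 3′ UTR of 0 bases against 104 in Defb6 and 609 in Defb1, so with such a model a 3′ tag beyond its stop codon would not be counted for it. No label or file header names the annotation the authors counted on.

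RefSeq gives start sites for 2 of the 5 genes, Defb6 and Defb3 (GRCm38.p6), and the 250 bases before each are shown because these neighbours are alike there and unlike in their counts. Capitals mark the octamer ATTTGCAT and the TATA box TATATAA, searched on both strands.
Defb6, chr8:19225228-19225477: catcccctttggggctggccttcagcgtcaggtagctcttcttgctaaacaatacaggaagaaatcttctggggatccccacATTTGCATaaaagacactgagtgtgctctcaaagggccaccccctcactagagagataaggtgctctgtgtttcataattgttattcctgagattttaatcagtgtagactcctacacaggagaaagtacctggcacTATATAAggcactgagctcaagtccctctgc
Defb3, chr8:19293111-19293360: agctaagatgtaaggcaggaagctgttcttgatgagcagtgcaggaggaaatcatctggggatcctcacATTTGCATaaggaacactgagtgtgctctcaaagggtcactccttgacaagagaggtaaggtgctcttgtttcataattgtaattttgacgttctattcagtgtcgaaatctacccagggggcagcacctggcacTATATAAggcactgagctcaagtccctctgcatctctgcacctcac
Over the window from 250 bases before to 50 after the start, 75.9% of aligned columns were identical. Each window has 1 octamer and 1 TATA box, which 1.74% and 3.24% of 32851 promoters of that length hold. The letters TTGCNNAA, a C/EBP-type motif found in 10.8% of promoters, occur 1 time in the Defb3 window, overlapping the octamer, and 2 times in that of Defb6, of which 1 overlaps the octamer. The letters TGANTCA (AP-1, 7.81% of promoters), TTCNNNGAA (STAT, 8.30%) and those of an NF-kB motif (0.411%) were found in neither window. A match is a match of letters and was not tested as a binding site.

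A UMI (unique molecular identifier) marks 1 captured transcript molecule, and CPM is UMIs of a gene per 1000000 UMIs summed over the cells of a group. The libraries held 3020790 to 41258087 UMIs, and 11595 of 13288 barcodes remained as cells. Clusters were made without any defensin gene, and names of cell classes and compartments rest on marker genes alone, so each name means "-like". They gave 2509 keratinocytes: 490 in untreated epidermis (median 2198 UMIs per cell), 1581 in non-lesional epidermis (median 9810), 428 in lesional skin (median 21371), 10 in untreated dermis and 0 in imiquimod dermis. In untreated epidermis 291 of the 490 had under 0.1% mitochondrial UMIs, against 1 of 1581 and 13 of 428 in the other skin libraries with keratinocytes. The lesional library shares no cell barcode with the others, which share 1 to 27 per pair, although the labels give 1 kit for all, and whether its chemistry differed was not tested. Its keratinocytes are a mix of 176 with Xist and no Y-linked UMIs and 186 with the reverse, while those of untreated and non-lesional epidermis with such UMIs are Y-linked but for 2 with both. Ppp6c, the gene of the floxed allele, stood at 80.2, 72.0 and 51.0 CPM in untreated, non-lesional and lesional keratinocytes, a 3′ measure that need not see a deleted exon. Each group is 1 library, so differences between groups lack a replicate check and were not tested. Intervals are 95% intervals of counting error only, and genotype, age, tissue and preparation cannot be told apart wherever they differ together.

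Of the 5 genes, 2 were abundant and 3 were nearly absent. Defb6 had 26791 UMIs over all barcodes: 6454 in untreated epidermis, 14546 in non-lesional epidermis, 5722 in lesional skin, 67 in untreated dermis and 2 in imiquimod dermis. Defb1 had 4096: 428, 2597, 1058, 13 and 0 in the same order. Both were found in all libraries that held keratinocytes, and the dermis libraries, which held 10 and 0 of these cells, were at or near 0.

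Defb3 had 3 UMIs and Defb14 2, all in lesional keratinocytes, and Defb4 had none in any library. The 3 Defb3 UMIs came from 2 basal cells of 49954 and 49402 UMIs, which also held 55 and 82 Defb6 UMIs. One Defb14 UMI came from a basal cell with 4 Defb6 UMIs and the other from a cell of the basal and companion-layer cluster with none. In lesional keratinocytes this was 0.267 CPM of Defb3 (0.0551 to 0.780) and 0.178 CPM of Defb14 (0.0216 to 0.643). Taken as 3 counts of the total, a count of 0 allows up to 1.37 CPM of each in untreated and 0.189 CPM in non-lesional keratinocytes, and up to 0.267 CPM of Defb4 in lesional ones, so a difference between the libraries was not detectable at this depth. Among all 64 Defa and Defb genes listed, 14 had a UMI, and the 10 outside the 5 members had 150 UMIs together.

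Defb6 was concentrated in one keratinocyte compartment. This cluster, named from both upper-follicle and suprabasal markers, was led by Car6, Cst6, Krt79, Pinlyp and Sprr1a, and Krt79 is a keratin of the infundibulum and sebaceous duct of the hair follicle. None of the 10 upper-follicle markers was at 0 in it, and they summed to 82921 CPM in untreated and 76024 CPM in non-lesional epidermis, against 1313 and 1474 CPM in basal cells. Cst6 alone gave 62078 and 54534 CPM of these sums. Adh7 was near its basal level, at 446 against 384 CPM in untreated and 371 against 354 CPM in non-lesional epidermis. The 41 cells of the cluster in untreated epidermis held 34521 CPM of Defb6 (33649 to 35409), 5954 of the 6199 Defb6 UMIs of all keratinocytes there. In non-lesional epidermis 74 cells held 17517 CPM (17187 to 17852), 10717 of 13708 UMIs. Thus 8.37% and 4.68% of the keratinocytes carried 96.0% and 78.2% of the Defb6 UMIs. In this compartment Defb6 made up 3.45% of all UMIs in untreated and 1.75% in non-lesional epidermis. Nearly every cell had it: 40 of 41 and 73 of 74 held a UMI, with medians of 43 and 117 UMIs per cell and highest values of 962 and 428.

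The next level lay far below. In the cluster with upper-follicle and basal markers, Defb6 stood at 210 CPM (162 to 268; 39 cells) in untreated and at 609 CPM (574 to 645; 226 cells) in non-lesional epidermis. Basal cells had 102 CPM (83.9 to 123; 243 cells) and 92.8 CPM (86.3 to 99.6; 828 cells), suprabasal cells 127 CPM (88.8 to 175) and 395 CPM (367 to 424), cycling cells 137 CPM (83.7 to 212) and 117 CPM (102 to 134), and bulge or outer-root-sheath cells 85.2 CPM (44.0 to 149) and 82.9 CPM (61.5 to 109). In the order of levels in untreated epidermis, the neighbours below the upper-follicle clusters (cycling, suprabasal, basal, bulge) do not differ beyond their intervals.

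These lower levels must be read against RNA that was free in the droplets. T cells and ILCs, which should lack the gene, had 93.4 CPM of Defb6 (78.5 to 110; 372 cells, median 4048 UMIs) in untreated and 114 CPM (102 to 126; 937 cells, median 3640 UMIs) in non-lesional epidermis, and 30.1% and 31.6% of them held a UMI. The pooled level in basal cells was 1.09 times (0.844 to 1.41) and 0.817 times (0.721 to 0.927) the T-cell and ILC level of its own library. On that pooled level, the 29.2% and 50.1% of basal cells with a Defb6 UMI (median 1940 and 10920 UMIs per cell) are read as background. Free RNA itself was not measured, and finer clusters (resolution 2) differed. Untreated basal cells stood at 200 CPM (159 to 248, 193 cells) in 1 cluster and 31.2 CPM (17.5 to 51.5, 33 cells) in another. In non-lesional epidermis 1 basal cluster stood at 213 CPM (138 to 315, 69 cells) and the others of at least 20 cells at 70.9 to 94.7 CPM. The upper-follicle and suprabasal cluster stood 370 times (313 to 440) and 154 times (139 to 171) above the T cells and ILCs. The upper-follicle and basal cluster was at 2.25 times (1.65 to 3.04) and 5.36 times (4.76 to 6.03).

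**Figure D1:**
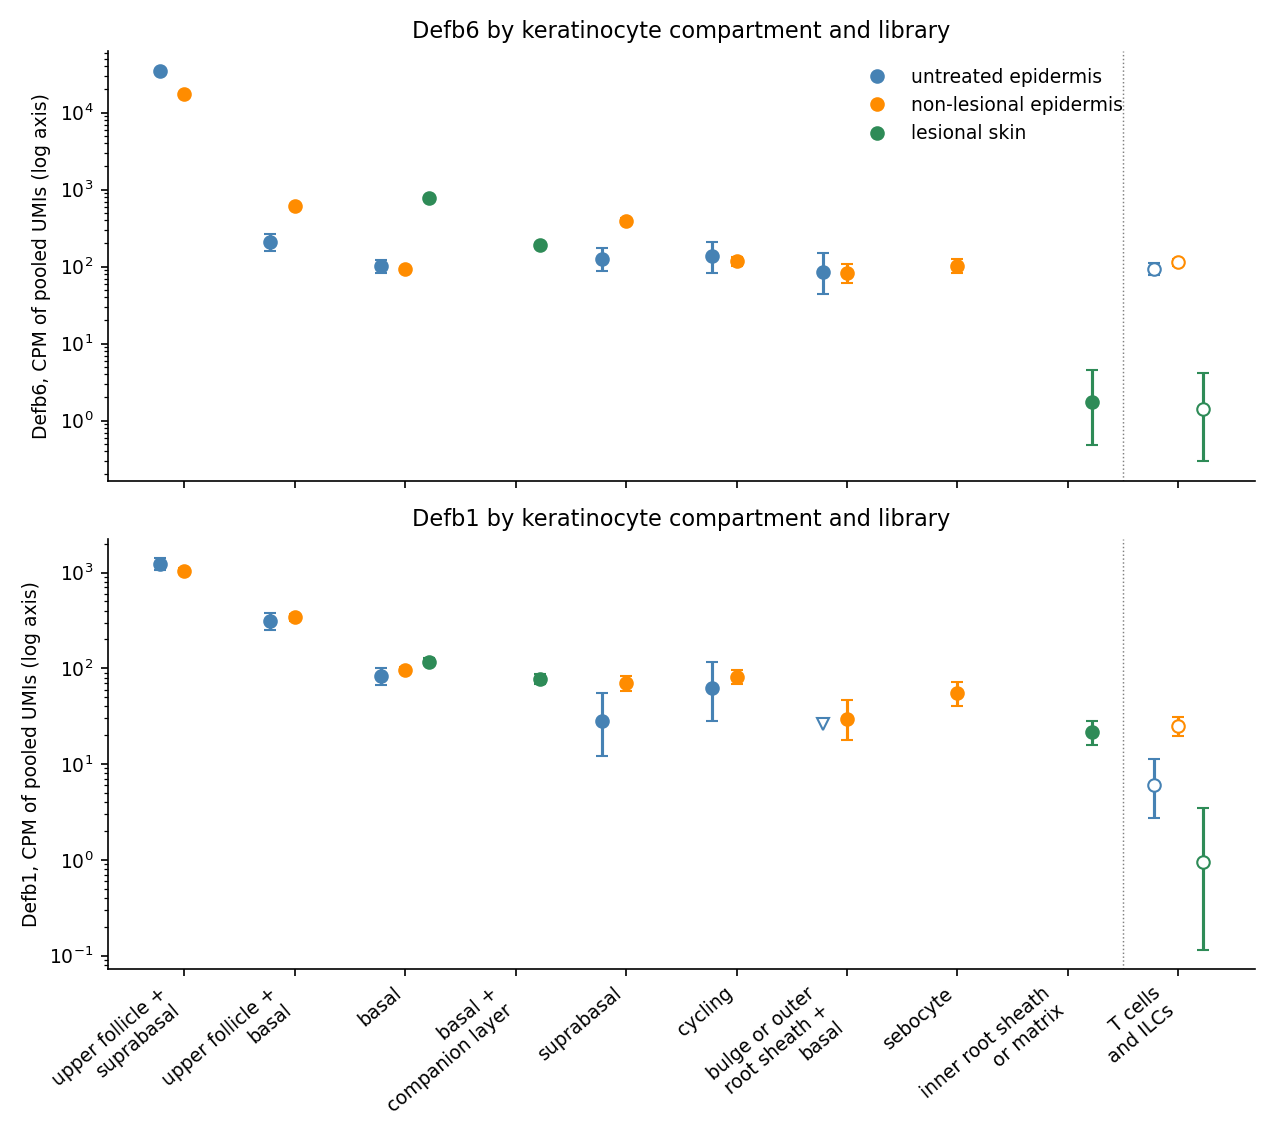
CPM of Defb6 (top) and Defb1 (bottom) on log axes by keratinocyte compartment, with T cells and ILCs as open circles; colours are libraries, bars are exact Poisson 95% intervals, an open triangle is the upper limit for 0 UMIs, and units under 20 cells are not drawn. Defb6 reached 34521 and 17517 CPM in the upper-follicle and suprabasal compartment and lay near the level of T cells and ILCs in basal, cycling and bulge cells of both epidermis libraries, while Defb1 in basal cells stood above that level.

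In lesional skin the upper-follicle and suprabasal cluster had 4 cells. They held 6275 CPM (5748 to 6838), 521 of 5553 Defb6 UMIs. The basal compartment, 138 cells, held 780 CPM (755 to 805) and 68.7% of the Defb6 UMIs. The cluster with basal and companion-layer markers, 180 cells, held 190 CPM (176 to 205) and 11.6%. In the 83 inner-root-sheath or matrix cells Defb6 was at 1.75 CPM (0.477 to 4.48), near the 1.44 CPM of the 465 T cells and ILCs (3 UMIs). A further 560 UMIs came from 6 suprabasal cells, of which 1 held 518. Background was thus far lower in this library, and 34.1% of basal cells but 0.645% of T cells and ILCs had a UMI.

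**Figure D2:**
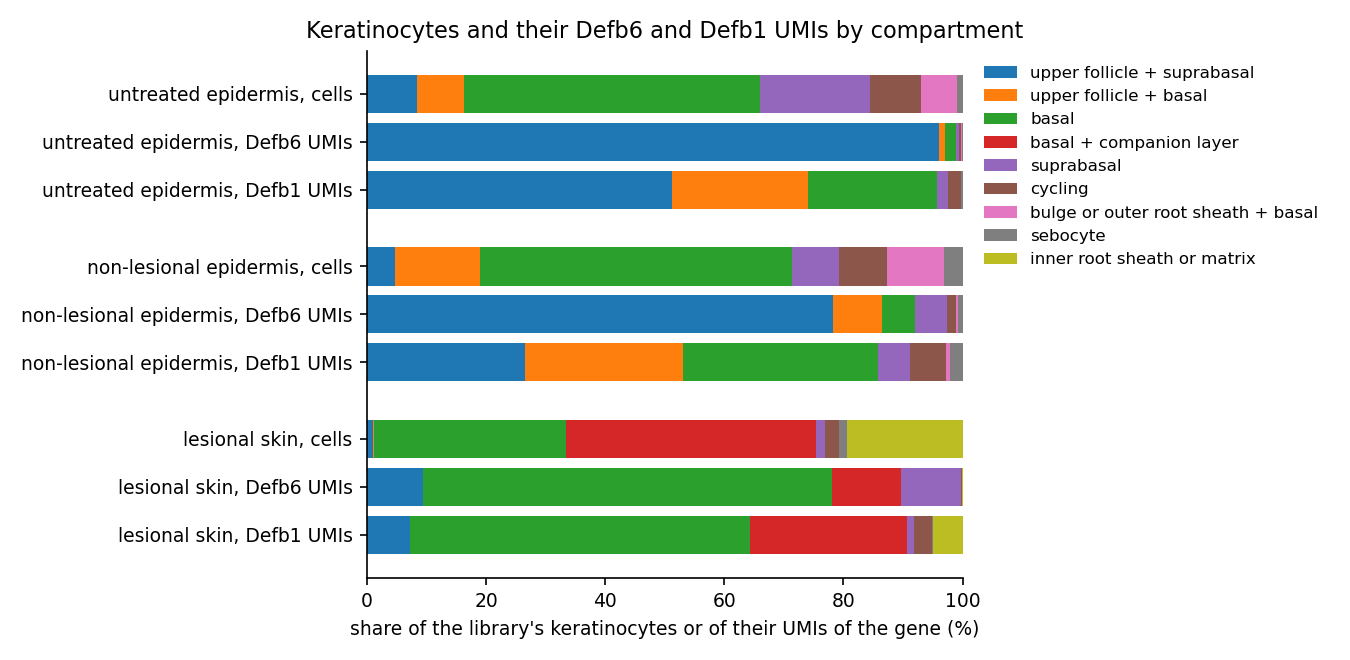
Stacked bars give, for each library, the share of keratinocytes (%) in each compartment and the share of their Defb6 and Defb1 UMIs (%) that fell into it. The upper-follicle and suprabasal compartment is 8.37% of cells and 96.0% of Defb6 UMIs in untreated epidermis, 4.68% and 78.2% in non-lesional epidermis, and 0.935% and 9.38% in lesional skin.

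Defb1 was also highest in the upper-follicle clusters but was spread more widely. Its level in the upper-follicle and suprabasal cluster was 1223 CPM (1064 to 1400) in untreated, 1041 CPM (962 to 1125) in non-lesional and 879 CPM (689 to 1106; 4 cells) in lesional skin. In the upper-follicle and basal cluster it was 308 CPM (249 to 377) and 340 CPM (314 to 367), and in basal cells 82.6 CPM (66.3 to 102), 95.8 CPM (89.3 to 103) and 117 CPM (108 to 127). T cells and ILCs had 6.00, 24.9 and 0.958 CPM in the same order of libraries, so basal cells stood 13.8 times (6.93 to 31.1), 3.85 times (3.06 to 4.89) and 122 times (33.6 to 1011) above them. Unlike for Defb6, the pooled basal level of Defb1 lay above the T-cell and ILC level in all of these libraries. Bulge or outer-root-sheath cells had 0 of 29 cells with a Defb1 UMI in untreated epidermis, which allows a share of cells with a UMI of up to 10.3% by 3 counts of the total, at a median of 4231 UMIs per cell, and 29.9 CPM (17.7 to 47.2) in non-lesional epidermis, 1.20 times (0.677 to 2.01) the T-cell level.

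The step from basal to upper-follicle and suprabasal cells was 14.8-fold (11.5 to 19.2) for Defb1 and 338-fold (280 to 412) for Defb6 in untreated epidermis, and 10.9-fold (9.77 to 12.1) and 189-fold (175 to 203) in non-lesional epidermis. With each cell thinned to 1000 UMIs it was 9.76-fold and 176-fold in untreated, 9.23-fold and 193-fold in non-lesional epidermis, and for Defb6 the basal level is one read as background. After the same thinning, 15 of 30 cells of this compartment in untreated and 37 of 74 in non-lesional epidermis held a Defb1 UMI, with 11 and 0 shallower cells left out. For Defb6 the thinned shares were 96.7% and 95.9%, against 97.6% and 98.6% before thinning. Every cell of the compartment with a Defb1 UMI also had a Defb6 UMI, 27 of 27 and 63 of 63. Among its cells without a Defb1 UMI, 92.9% and 90.9% had a Defb6 UMI too.

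Over the 16 units of library and compartment with at least 20 cells, log2(CPM + 5) of Defb1 and Defb6 had a Pearson r of 0.802. The genes closest to Defb6 among 5095 that reached 50 CPM were Cstb (r 0.944), a cathepsin inhibitor, Cst6 (0.941), a cystatin that inhibits cathepsins and legumain, Atp6v1c2 (0.930), a subunit of the proton pump, Krt77 (0.889), a keratin, and Skint3 (0.887). Those closest to Defb1 were Bace2 (0.881), an aspartyl protease, Atp6v1c2 (0.843), Cyp27a1 (0.840), a sterol hydroxylase, Hsd17b13 (0.832) and Ptgr1 (0.827). The units share 3 libraries and their depth and free RNA, and Cst6, Atp6v1c2 and Krt77 are also markers by which compartments were named, so these values are descriptions.

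Non-lesional against untreated epidermis compares the 2 genotypes in epidermis without a lesion at the same age. Over all keratinocytes Defb6 was lower in non-lesional epidermis, 864 CPM (850 to 879) against 2841 CPM (2771 to 2913), a ratio of 0.304 (0.295 to 0.314) or 3.29-fold lower (3.19 to 3.39). With each cell thinned to 1000 UMIs the ratio was 0.495. A gene was called where the interval of the ratio lay wholly beyond 1.5-fold, and 2.01% of 7771 measured genes were called lower and 3.22% higher by this rule. Of the 5 members, 2 were measured, and 1 was called. Defb1 was not called, at 152 CPM (146 to 158) against 189 CPM (171 to 208), a ratio of 0.803 (0.723 to 0.894).

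The difference was not of one sign over compartments. Within the upper-follicle and suprabasal cluster Defb6 was 1.97-fold lower in non-lesional epidermis (1.91 to 2.03), a ratio of 0.507, with 0.93% of 6130 genes called lower and 1.21% higher there. The richest 5 of its 41 untreated cells held 60.4% of the UMIs, and the richest 8 of 74 non-lesional cells 26.1%. The mean of per-cell CPM gave a ratio of 0.602 and thinning to 1000 UMIs 0.601, both outside the interval of counting error. Within the upper-follicle and basal cluster Defb6 was 2.90-fold higher (2.25 to 3.79), with 0.888% of 7879 genes called higher and 1.84% lower. In that cluster the 5 richest of 39 untreated cells held 64.1% of the UMIs. Cells with at least 10 Defb6 UMIs per 10000 were 3 of 39 in untreated and 22 of 226 in non-lesional epidermis, 7.69% and 9.73%. There Krt79 was at 171 CPM in untreated and 339 CPM in non-lesional cells, and Cst6 at 364 and 760 CPM. Aldh3a1 and Adh7, also upper-follicle markers, were lower in non-lesional cells, at 688 against 1224 and 1228 against 1460 CPM. In suprabasal cells Defb6 was 3.11-fold higher (2.23 to 4.48), with 2.63% of 7379 genes called higher and 0.813% lower. However, 5 of the 124 non-lesional cells held 79.9% of its UMIs, and the mean of per-cell CPM gave 1.32-fold. The libraries also gave mostly different suprabasal clusters. Of 91 untreated cells, 86 lay in a cluster with a median of 1772 UMIs, and 122 non-lesional cells in a cluster with a median of 16130. Krt79 stood at 35.2 CPM in untreated and 1255 CPM in non-lesional suprabasal cells, and Aldh3a1, another upper-follicle marker, at 88.0 and 58.8 CPM. In basal, cycling and bulge cells Defb6 was not called, with ratios of 0.910 (0.744 to 1.12), 0.855 (0.539 to 1.43) and 0.973 (0.511 to 2.01). Of all genes measured, 2.72% were called higher and 1.68% lower in basal cells, 1.77% and 1.23% in cycling cells, and 0.686% and 1.47% in bulge cells. The basal and cycling cells also came from several clusters. Of the untreated ones, 197 basal and 38 cycling cells lay in clusters that held 20 and 18 non-lesional cells.

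Defb1 was not called in any of these compartments. Its ratio was 0.851 (0.727 to 0.999) in upper-follicle and suprabasal, 1.10 (0.886 to 1.38) in upper-follicle and basal, 1.16 (0.931 to 1.46) in basal, 2.47 (1.22 to 5.84) in suprabasal and 1.32 (0.674 to 2.93) in cycling cells. An interval that reaches 1.5-fold does not show that the levels are alike. The makeup of the libraries moved with the lower Defb6 over all keratinocytes: the upper-follicle and suprabasal cluster was 8.37% of untreated and 4.68% of non-lesional keratinocytes, and 20 of its 41 untreated cells had under 0.1% mitochondrial UMIs against 0 of 74. The share of such cells was not tested as a cause. Without such barcodes the ratio within the cluster was 0.486 and that over all keratinocytes 0.251.

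**Figure D3:**
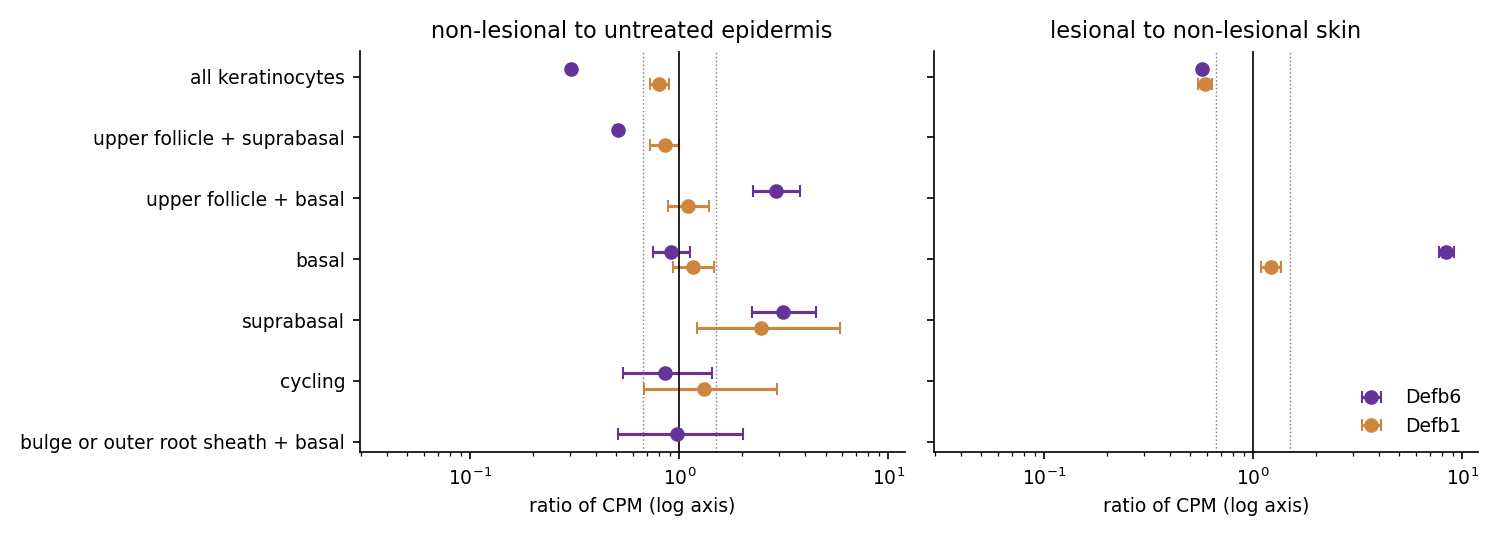
Ratio of CPM on a log axis for Defb6 and Defb1, non-lesional to untreated epidermis (left) and lesional to non-lesional skin (right), over all keratinocytes and within compartments of at least 20 cells in both libraries; bars are 95% intervals of counting error, dotted lines mark 1.5-fold either way. Defb6 was at 0.304 over all keratinocytes, 0.507 and 2.90 in the 2 upper-follicle clusters on the left, and 8.40 in basal cells on the right, while the Defb1 ratios drawn lie between 0.588 and 2.47; that of bulge cells, with 0 untreated UMIs, is not drawn.

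Lesional against non-lesional skin compares the same genotype with and without a lesion, but whole skin of 18 weeks with epidermis of 10 weeks. Over all keratinocytes both abundant members were called lower in lesional skin. Defb6 stood at 494 CPM (481 to 507) against 864 CPM (850 to 879), 1.75-fold lower (1.69 to 1.80), and Defb1 at 89.2 CPM (83.8 to 94.9) against 152 CPM (146 to 158), 1.70-fold lower (1.58 to 1.83). By the same rule 11.1% of 8582 genes were called lower and 27.8% higher. Against untreated epidermis, whose library the first comparison shares, the lesional levels were 5.75-fold lower (5.54 to 5.96) for Defb6 and 2.12-fold lower (1.88 to 2.38) for Defb1, with 9.75% of 8656 genes called lower and 21.8% higher. In basal cells Defb6 was 7.64-fold higher (6.32 to 9.32) than in untreated epidermis, where 14.2% of 8236 genes were called higher and 9.68% lower. The untreated basal level is one read as background, and 31 of the 138 lesional basal cells held 96.5% of the UMIs. Of these 138, 124 lay in a cluster that held 1 untreated cell.

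In lesional cells with Xist and no Y-linked UMIs the ratio to non-lesional keratinocytes was 0.397 for Defb6 and 0.522 for Defb1, and in those with Y-linked UMIs and no Xist 0.712 and 0.668, lower than 1 in both sets. The makeup of the lesional keratinocytes moved with this difference: 42.1% lay in the basal and companion-layer cluster and 19.4% in the inner-root-sheath or matrix cluster, neither of which held cells of the epidermis libraries. The level in T cells and ILCs was also lower in the lesional library. The part of makeup or of free RNA in the difference was not tested.

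Within the basal compartment Defb6 went the other way, 780 CPM in lesional against 92.8 CPM in non-lesional cells, 8.40-fold higher (7.77 to 9.09). By the same rule 21.8% of 8150 genes were called higher and 11.5% lower. The compartment joins several clusters named basal, and 124 of the 138 lesional cells lay in a cluster that held 1 non-lesional cell. The fold thus compares largely different clusters under 1 name. The non-lesional basal level, pooled over clusters, is read as background, at 0.817 times that of T cells and ILCs (114 CPM). T cells and ILCs of lesional skin had 1.44 CPM. The fold is thus one over a level read as background, and the part of free RNA in it was not tested. Defb1 was not called there, at a ratio of 1.22 (1.09 to 1.36). The lesional Defb6 UMIs came from few cells. Those with at least 10 Defb6 UMIs per 10000 were 42 of 428 keratinocytes and held 94.7% of the UMIs. Of them, 31 lay in the basal compartment and held 96.5% of its UMIs.

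These 31 cells, chosen by their Defb6 level, carried Krt79 at 10260 CPM and Cst6 at 3523 CPM, against 283 and 37.1 CPM in the other 107 basal cells. They had Krt5, the keratin of the basal layer, at 1743 against 7519 CPM, and Krt14, its partner, at 10713 against 20052 CPM. The 10 upper-follicle markers summed to 22964 against 3079 CPM, though Klk10, 1 of them, was lower, at 39.0 against 62.3 CPM. Suprabasal markers were also higher, at 19389 against 10145 CPM, as were granular markers, at 203 against 53.4 CPM. Defb6 in the other 107 cells was 32.9 CPM. When the basal cells with at least 10 Krt79 UMIs per 10000 were left out, a criterion that does not use Defb6 and was set after these values were seen, the lesional to non-lesional ratio in basal cells was 0.918 in place of 8.40. As its denominator is still the non-lesional level read as background, a ratio near 1 does not show that the basal levels are alike.

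Since clusters held these cells in different compartments, keratinocytes of all libraries were also ordered by their Krt79 level alone, again after the values were seen. Cells with at least 50 Krt79 UMIs per 10000 were 31 of 490 untreated keratinocytes (6.33%, 4.34 to 8.86), 61 of 1581 non-lesional ones (3.86%, 2.96 to 4.93) and 29 of 428 lesional ones (6.78%, 4.58 to 9.59). They carried 88.5%, 70.0% and 72.3% of the Defb6 UMIs of all keratinocytes of their library. Their summed Krt79 was close across libraries, at 14087, 14659 and 15849 CPM.

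In these cells Defb6 was lower at each step, from 42109 CPM (41002 to 43238) in untreated to 16759 CPM (16425 to 17098) in non-lesional and 5185 CPM (5026 to 5348) in lesional skin. The first step was 2.51-fold (2.43 to 2.60) and the second 3.23-fold (3.12 to 3.35). Per cell, the median was 311 Defb6 UMIs per 10000 (quartiles 137 and 498) in untreated, 164 (66.6 and 248) in non-lesional and 57.2 (32.8 and 73.7) in lesional cells, and the cells of the libraries overlapped. Without barcodes under 0.1% mitochondrial UMIs, which leaves 15 untreated cells, the levels were 44841, 16759 and 5307 CPM. In lesional cells with only Xist UMIs the level was 4046 CPM (9 cells) and in those with only Y-linked UMIs 5408 CPM (18 cells). Thresholds of 25 and 100 Krt79 UMIs per 10000 gave first steps of 3.07-fold and 2.92-fold and second steps of 3.14-fold and 2.56-fold.

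Defb1 in the same cells was 1442 CPM (1244 to 1664), 950 CPM (872 to 1034) and 298 CPM (261 to 339), steps of 1.52-fold (1.28 to 1.79) and 3.19-fold (2.73 to 3.73). Cst6 was at 75969, 52141 and 17616 CPM, the same order as both defensins. S100a8, an antimicrobial calcium-binding protein, was at 7.67, 5.24 and 573 CPM. Its untreated and non-lesional values rest on few UMIs, so their order is not read. Krt6a, a keratin of wounded and inflamed epidermis, was at 276, 105 and 1662 CPM. In keratinocytes with under 2 Krt79 UMIs per 10000, Defb6 was at 181 CPM (162 to 201), 132 CPM (126 to 138) and 26.2 CPM (23.0 to 29.8), against 93.4, 114 and 1.44 CPM in T cells and ILCs of these libraries.

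**Figure D4:**
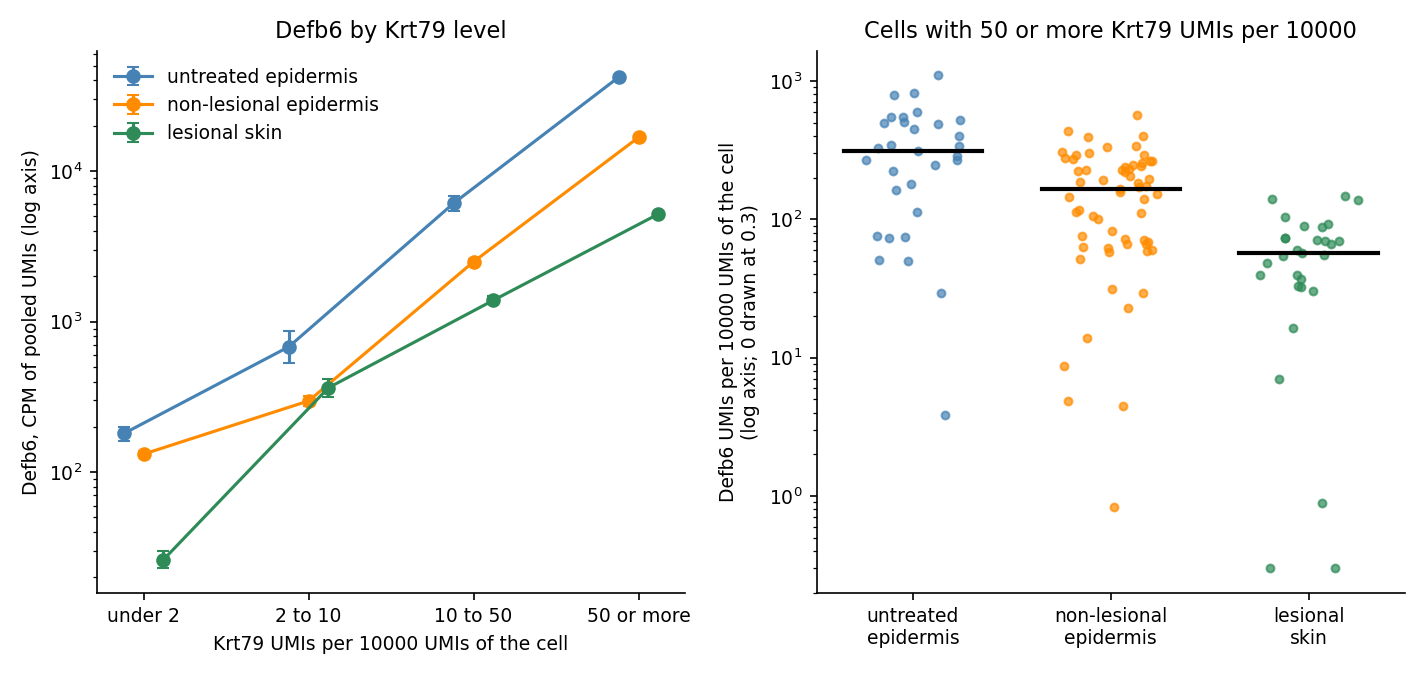
Left, CPM of Defb6 (log axis) in keratinocytes grouped by Krt79 UMIs per 10000, with exact Poisson 95% intervals, lines joining a library's groups; right, Defb6 UMIs per 10000 (log axis, 0 drawn at 0.3) in each cell with at least 50 Krt79 UMIs per 10000, with black lines at the medians. Among the cells with the most Krt79 the medians were 311, 164 and 57.2 in untreated, non-lesional and lesional cells, with overlap between libraries.

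Few UMIs of the members lay outside keratinocytes in the libraries that hold dermis. In untreated dermis 66 of 67 Defb6 UMIs and 13 of 13 Defb1 UMIs were in the 10 keratinocytes, at 821 CPM (635 to 1044) and 162 CPM (86.1 to 276), and 1 of these cells held 49 of the Defb6 UMIs. In imiquimod dermis 2 of 4790 cells held a Defb6 UMI and 0 a Defb1, Defb3, Defb4 or Defb14 UMI, which allows up to 0.0782 CPM of each of these. As that library held no keratinocytes, it says nothing of the epidermis under imiquimod. In lesional skin the 2153 cells other than keratinocytes had 2.35 CPM of Defb6 (1.73 to 3.13) and 0.550 CPM of Defb1 (0.275 to 0.984).

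Of 28 other antimicrobial proteins of skin, 9 were measured in keratinocytes of lesional against non-lesional skin, and 5 were higher and 3 lower, with a median log2 ratio of 0.65 against 0.22 over all genes, of which 27.8% were called higher and 11.1% lower. In basal cells alone the same list had 4 higher and 4 lower of 9 measured and a median of -0.07 against 0.16, with 21.8% and 11.5% of all genes called. Over all keratinocytes S100a9 was 18.8-fold (15.6 to 22.7), Lcn2, an iron-siderophore binder, 18.2-fold (14.3 to 23.4) and S100a8 14.3-fold higher (12.4 to 16.7). Ccl20, the chemokine ligand of Ccr6, was 6.88-fold lower (5.71 to 8.34) in the same cells. S100a8 and S100a9 are also abundant in neutrophils, whose list of 8 markers, these included, summed to 717 CPM in lesional basal cells with 2 markers at 0 and to 35.4 CPM in non-lesional ones with 4 at 0, and their part in this was not tested. In non-lesional against untreated keratinocytes 7 were measured, with S100a8 and Cxcl14 higher and Lcn2 lower, where 3.22% of all genes were called higher and 2.01% lower. S100a8 rested on 2 UMIs in untreated cells, a ratio of 13.8 (3.78 to 115).

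Of 33 receptors and signal proteins upstream of beta-defensin genes, 27 were measured in lesional against non-lesional keratinocytes, with 10 higher and 3 lower and a median log2 ratio of 0.27 against 0.22 over all genes, of which 27.8% were called higher and 11.1% lower. In basal cells alone 5 of 26 measured were higher and 4 lower, with a median of -0.01 against 0.16. Of all genes measured there, 21.8% were called higher and 11.5% lower. Over all keratinocytes Tlr2, a sensor of bacterial lipoproteins, was 7.01-fold (4.68 to 10.8) and Bcl3, an NF-kB cofactor, 6.52-fold higher (4.74 to 9.14). Nfkb1 was 4.39-fold (3.99 to 4.84) and Cebpd 4.07-fold higher (3.66 to 4.54) in these cells. In the same cells Fos was 3.30-fold lower (3.21 to 3.39) and Ifngr1, a subunit of the interferon-gamma receptor, 2.79-fold lower (2.51 to 3.11). In non-lesional against untreated keratinocytes 0 of 24 measured were called in either direction, against the same 3.22% and 2.01% of all genes.

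Of 6 receptors reported for beta-defensins, none was measured in non-lesional against untreated keratinocytes, and 1, Tlr2, over all lesional against non-lesional keratinocytes. Ccr6 stood at 94.6 CPM in T cells and ILCs of imiquimod dermis, where 99 of 327 cells held a UMI, and at 45.5 CPM in those of lesional skin, where 65 of 465 cells did. In T cells and ILCs of untreated dermis it stood at 15.5 CPM (6 of 134 cells), in those of non-lesional epidermis at 2.13 CPM (4 of 937), and 0 of 372 held a UMI in untreated epidermis. Ccr2 was at 246 CPM in imiquimod dermis, 313 CPM in lesional skin and 234 CPM in untreated dermis, and at 2.43 and 0 CPM in non-lesional and untreated epidermis.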

How the data were processed

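Single cells of mouse skin were counted in 5 droplet libraries (Chromium 3′ v3 per the labels), 1 per group. The authors deposited UMI counts per gene and barcode, made with Cell Ranger on mm10 per the submitters' processing notes and version 3.0.2 per the file headers. The counts are unnormalised. Barcodes with under 200 genes, over 20% mitochondrial or 10% haemoglobin UMIs were left out, as were 330 by doublet score (0.8% per 1000 barcodes). Cells were clustered without defensin genes (scanpy 1.11.5, Leiden, 2000 variable genes, 30 components, resolution 1) and named from 25 marker lists. Levels are CPM of summed counts with exact Poisson intervals, shares have Clopper-Pearson intervals, and ratios conditional binomial ones (scipy 1.17.1). A ratio needed 10 UMIs and 10 CPM, and was called where its interval lay beyond 1.5-fold; this ratio code was tested on simulated data. No replicate test was possible. The text names the 5 members, the list genes with the largest called ratios, and the 5 genes most like each abundant member. Members and lists were chosen with earlier results of these data known. Other filters, scalings and choices of cells were tried (14 in all, and 3 added after seeing the data).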

Additional observations from a re-analysis of the deposited data

Results flagged for a closer look

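Defb6 differed between non-lesional and untreated epidermis in opposite directions in 2 neighbouring compartments. The ratio was 0.507 in the upper-follicle and suprabasal cluster and 2.90 in the upper-follicle and basal cluster. The difference between these ratios was not tested, since each group is 1 library. In the upper-follicle and basal cluster Krt79 was at 171 CPM in untreated and 339 CPM in non-lesional epidermis. Aldh3a1, another marker, went the other way, from 1224 to 688 CPM. Grouped by Krt79 alone, keratinocytes had a lower pooled Defb6 level in non-lesional than in untreated epidermis in every group. In rising order of Krt79, the levels were 132 against 181, 297 against 681, 2500 against 6127 and 16759 against 42109 CPM. The middle groups held 23 and 18 untreated cells, with 67 and 300 Defb6 UMIs. Per cell, the median of the lower 2 groups was 0 in untreated and above 0 in non-lesional cells, which held more UMIs per cell. In the upper 2 groups it was lower in non-lesional cells. In cells with only Y-linked UMIs, the upper middle group alone went the other way, at 1766 against 201 CPM, with 4 untreated cells. The part of cell mix in the contrast was not tested.

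Defb40, a beta-defensin gene outside the 5 members, had 62 UMIs in imiquimod dermis and 2 in untreated dermis, a signal in a library that the keratinocyte comparisons do not use. Of the 62 UMIs, 54 lay in 20 of 257 cells (7.78%, 4.82 to 11.8) of an unnamed cluster led by Mcpt8, a protease gene of basophils.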

How the results depend on the processing

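The Defb6 ratio of non-lesional to untreated keratinocytes (0.304) was 0.319 with at least 500 genes and under 10% mitochondrial UMIs, 0.251 without barcodes under 0.1% mitochondrial UMIs, 0.320 with median-of-ratios size factors, 0.394 as the mean of per-cell CPM, 0.495 with cells thinned to 1000 UMIs and 0.273 with the level in T cells and ILCs subtracted. That of Defb1 (0.803) was 0.685 without the low-mitochondrial barcodes, 0.957 thinned and 0.693 subtracted. The Defb6 ratio of lesional to non-lesional keratinocytes (0.572) was 0.536 under the stricter filter, 0.550 with all barcodes, which adds 181 lesional keratinocytes, 0.461 with median-of-ratios, 0.542 without the 50 most abundant genes, 0.602 thinned, 0.657 subtracted, 0.397 in lesional cells with Xist UMIs only and 0.712 in those with Y-linked UMIs only. That of Defb1 (0.588) was 0.474 with median-of-ratios, 0.531 as the per-cell mean, 0.510 thinned, 0.696 subtracted, and 0.522 and 0.668 in the Xist-only and Y-only cells. These 4 ratios stayed below 1 under all 9, 9, 11 and 11 alternatives run. The Defb6 ratio within basal cells, 8.40, was 0.918 without cells of at least 10 Krt79 UMIs per 10000, a choice made after seeing the data, and above 1 under the other 11 alternatives. In suprabasal cells the Defb6 ratio (3.11) ranged from 1.32 to 9.66, in the upper-follicle and suprabasal cluster (0.507) from 0.398 to 0.602 and in the upper-follicle and basal cluster (2.90) from 2.61 to 4.24. Causes of these shifts were not tested. No paired analysis was possible because each group has 1 library, and none could be left out. Defb3 and Defb14 rest on 3 and 2 UMIs, and for Defb4 the counts give an upper limit alone.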

Other observations

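In lesional skin Defb40 had 22 UMIs: 8 in 5 of the 6 cells of the Mcpt8-led cluster and 14 in 3 other barcodes. Of these 14 UMIs, only 1 lay in a barcode kept as a cell. In untreated dermis the 1 cell of that cluster held both of the library's 2 Defb40 UMIs, and neither epidermis library had any. Defb2 had 30 UMIs, 20 in non-lesional epidermis, 9 in lesional skin and 1 in untreated dermis, of which 18 and 8 lay in the keratinocytes of the first and second.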
